A study of Mus musculus with 56 samples.

Results

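The 14 libraries described here followed regulatory T cells (Tregs) of visceral adipose tissue (VAT) over 16 weeks of a high-fat diet (HFD). They were chosen by their labels, out of 56 libraries in the series: 3 from week 0 and 3, 2, 3 and 3 from mice fed HFD for 2, 4, 8 and 16 weeks. The mice were C57BL/6 animals carrying vTreg53 Tg+, a transgene for 1 T cell receptor, and the diet began at 12 weeks of age, so time on the diet is also age. Week 0 libraries carry no diet label. Each library was prepared from 1000 Tregs that bore the transgenic clonotype and had been sorted in 2 rounds, and the labels speak of the animals as recipients. The labels do not say whether replicates came from separate animals, so p-values measure the spread between these libraries, which may be technical. Compared with them were 11 VAT libraries of mice fed the normal chow diet (NCD) for 2, 4, 8 or 16 weeks and 12 libraries of spleen Tregs from the HFD weeks, all of the same genotype. The tissue of the spleen libraries was taken from their titles, since their tissue label names VAT. Only 2 VAT libraries stand for HFD week 4 and 2 for NCD week 16. Some gene lists also used other libraries of the series, of spleen Tregs with NCD and of VAT Tregs in culture.

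Tregs are CD4 T cells held in their lineage by the transcription factor Foxp3, and those of visceral fat form a distinct tissue population. They depend on the nuclear receptor Pparg and on IL-33, which they sense through the receptor ST2 (gene Il1rl1), carry Gata3, Klrg1 and Ccr2, and make the cytokines Il10 and Areg. Tregs of the spleen and lymph nodes instead carry genes of recirculating and resting T cells such as Ccr7 and Tcf7. Type I interferon signals through factors such as Stat2 and Irf9 to raise a large set of antiviral genes, and in VAT Tregs in culture it was 1 of the treatments of the same series.

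The libraries held 3319873 to 5835831 counts each, so that 3 counts correspond to 0.50 to 0.94 CPM, the unit of all levels below. CPM are counts scaled to a common library size after normalisation, and where 5 means are given they are those of weeks 0, 2, 4, 8 and 16 in that order. They compare libraries for 1 gene and do not rank genes, since they are not divided by gene length. Foxp3 ran from 872 to 1178 CPM across the 14 libraries, and all 10 T cell marker genes had counts in every one of them. Cd8a was at most 0.26 CPM and the fat cell gene Adipoq at most 0.24 CPM. Of 15 B cell markers, the summed level was 1335 to 3193 CPM at week 0, 922 to 3206 at week 2, 763 to 867 at week 4, 1301 to 1750 at week 8 and 1853 to 2822 at week 16. Most of it was Ighm, at 667 to 2454 CPM. The part of such reads in the results below was not tested. Summed over 14 macrophage markers the level was at most 13.5 CPM. The share of mitochondrial counts lay between 0.84% and 1.21%.

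In a principal component analysis of the 14 libraries the first component held 21.1% of the variance and followed time after week 4. Its scores lay between -25.8 and -12.0 at weeks 0 and 2, were -47.9 and -32.9 at week 4, rose to 14.6 to 22.6 at week 8 and reached 37.8 to 54.2 at week 16. The ranges of weeks 0 and 2 overlapped, and the libraries of weeks 4, 8 and 16 did not overlap with each other. On the second component, with 12.5% of the variance, week 4 lay lowest at -52.2 and -24.0, although 1 week 8 library at -26.8 reached into its range.

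**Figure D1:**
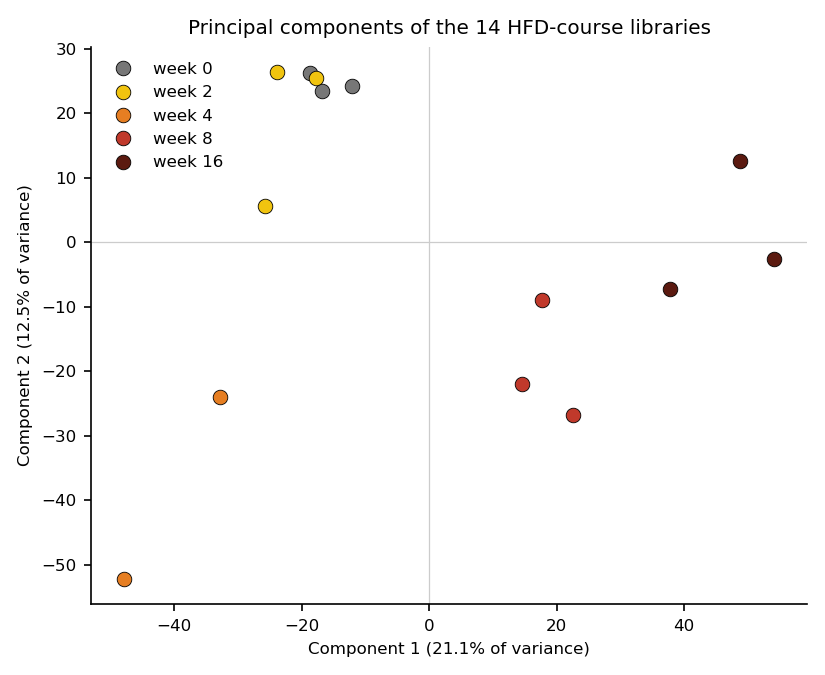
Scores of the 14 libraries on the first and second principal components of log2 CPM, coloured by week. The 3 libraries of week 16 lie at 37.8 or higher on component 1 and all libraries of weeks 0, 2 and 4 lie at -12.0 or lower.

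Of 14164 genes tested, 1190 differed among the 5 time points at an adjusted p under 0.05 (8.40% called; edgeR quasi-likelihood test with Benjamini-Hochberg adjustment, as for every adjusted p below). The group means of these genes peaked most often at week 16 (424 genes) and week 4 (371), and were lowest most often at week 16 (536) and week 4 (319). Peaks at week 8 were the rarest, with 56 genes. Means of week 4 rest on 2 libraries and so can be an extreme more easily. Peaks and lows were counted over the called genes only, with no share over all genes tested.

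Steps that follow each other were tested next. From week 0 to the mean of weeks 2 and 4 only 4 genes were called (0.0282% of those tested), all higher, while 1319 genes had an unadjusted p under 0.05. From weeks 2 and 4 to week 8, 130 genes rose (0.918%) and 140 fell (0.988%). Without the first week 8 library 45 rose and 17 fell, without the second 74 and 67, and without the third 53 and 53. Without 1 or the other week 4 library, 46 rose and 54 fell, or 110 rose and 66 fell, and without both 35 rose and 69 fell. From week 8 to week 16, with 3 libraries on each side, 5 rose (0.0353%) and 14 fell (0.0988%). No gene was called in this step without the second week 8 or the third week 16 library, and 1 was without the first week 16 library. The first of these steps and the last share no library. Other tools gave more calls for the first step, 86 with DESeq2 and 81 with limma voom, and for the last step 188 and 36.

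Week 16 was then set against the mean of weeks 2, 4 and 8, a comparison called the late change below. In it 624 genes rose (4.41%) and 677 fell (4.78%). Without the third week 16 library, 334 rose and 391 fell, and without week 4, 253 rose and 329 fell. Week 8 lay between the mean of weeks 2 and 4 and week 16 in 558 of the 624 rising genes and in 625 of the 677 falling ones. Of the 624 and 677 genes, 312 and 259, respectively, were past the halfway point at week 8. The week 8 libraries took part in choosing these genes, and no share over all genes was computed. These counts therefore cannot test whether the course was gradual. Over all 14164 genes tested, the libraries compared in the late change did not overlap in 426 higher and 446 lower genes. For the steps above, in order, these counts were 469 and 393, 723 and 767, and 1135 and 1044. Genes named by rule were picked for having no such overlap, so their separation is no further result. From week 0 to week 16 356 genes rose (2.51%) and 371 fell (2.62%), a total of 727 that was 360 to 469 without any 1 week 0 library and 438 without the third week 16 library. A straight trend over the weeks, fitted to the 5 means, was positive in 845 genes (5.97%) and negative in 836 (5.90%), the most calls of these contrasts, and without the third week 16 library in 496 and 527.

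**Figure D2:**
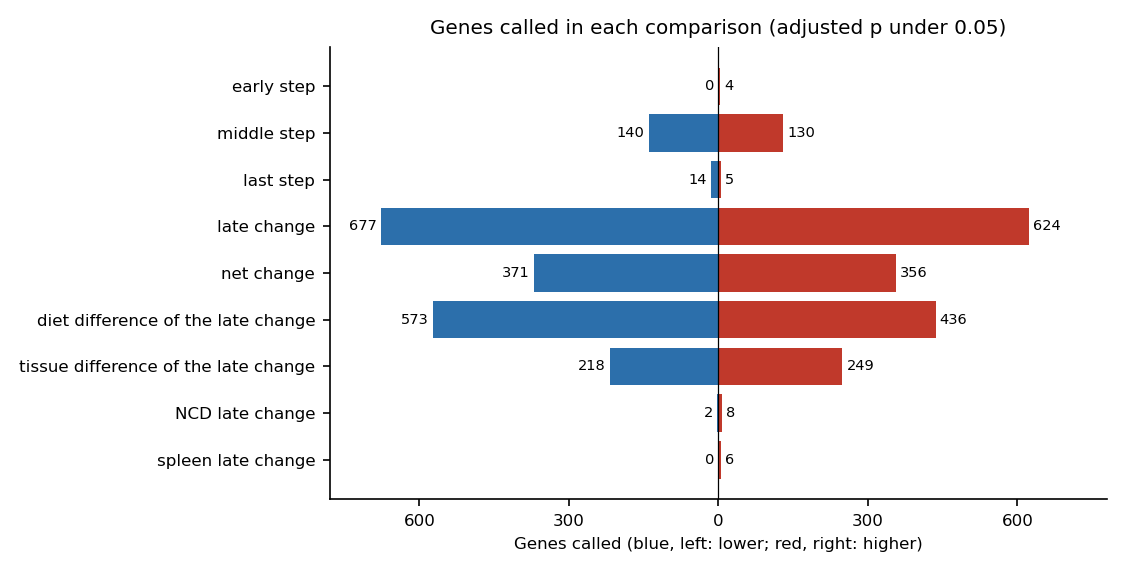
Number of genes called higher (red, right) and lower (blue, left) at an adjusted p under 0.05 in each comparison. The late change with HFD has 624 and 677 genes, while the same contrast has 8 and 2 in VAT with NCD and 6 and 0 in the spleen with HFD.

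The 4 genes called in the early step were Ctla4, a receptor that restrains T cell activation, Srgn, a granule proteoglycan, Atxn1, a transcriptional regulator, and Id2, an inhibitor of helix-loop-helix factors. Ctla4 stood at 2084, 2025 and 1999 CPM at week 0, at 2763, 2578 and 2417 at week 2 and at 3353 and 3249 at week 4, with no overlap between these weeks. It was 2081, 2353 and 2206 CPM at week 8 and 1597, 2026 and 1584 at week 16, so that week 16 overlapped with week 0. The early rise was 0.52 on the log2 scale (SE 0.08, adjusted p = 0.0181), and the late change of Ctla4 was -0.62 (SE 0.08, adjusted p = 1.27e-05). Id2 rose by 0.86 (SE 0.16, adjusted p = 0.0441), Atxn1 by 0.65 (SE 0.12, adjusted p = 0.0297) and Srgn by 0.53 (SE 0.09, adjusted p = 0.0203). Ctla4, Srgn and Atxn1 then fell in the late change, while Id2 did not pass that test (log2 -0.34, adjusted p = 0.156). No gene was called when any 1 of the week 0 libraries, replicate 1 of week 2 or replicate 2 of week 4 was left out, nor when week 4 was left out whole.

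Among the genes that define VAT Tregs, more fell than rose late. Of the 24 members of this list that were tested, 13 fell and 2 rose in the late change, with a median of -0.79 on the log2 scale against 0.04 over all genes tested. In the early step 18 of the 24 had a positive log2 difference (median 0.41, all genes -0.02), with none called. The members that fell take in the receptors Il1rl1, Klrg1, Ccr1, Ccr2 and Ccr3, the transcription regulators Pparg, Rora and Irf4, the secreted factors Il10, Areg, Cxcl2 and Fgl2, and the triglyceride enzyme Dgat1. Dgat2, an enzyme of the same last step of triglyceride synthesis, and the lipid receptor Gpr55 rose. Without the first, the second or the third week 16 library, 10, 14 and 10 members fell, and without week 4, 9 did.

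Pparg was 90.8, 79.2 and 119 CPM at week 0, 96.8, 87.9 and 119 at week 2, and 85.1 and 78.2 at week 4. It was 44.8, 55.6 and 61.1 CPM at week 8 and 17, 51 and 22.3 at week 16. All 6 libraries of weeks 8 and 16 lay below all 8 of the earlier weeks, and weeks 8 and 16 overlapped in 1 library. The late change of Pparg was -1.33 (SE 0.28, adjusted p = 0.00457), and week 16 against week 0 gave -1.67 (SE 0.32, adjusted p = 0.00386).

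Il1rl1, the IL-33 receptor, took another path. Its levels were 634, 578 and 597 CPM at week 0, 900, 779 and 802 at week 2, 995 and 933 at week 4, 628, 747 and 767 at week 8 and 220, 646 and 466 at week 16. Week 16 thus spread over a range that reached from well below week 0 to just above it. The late change was -0.90 (SE 0.20, adjusted p = 0.00645; without week 4 adjusted p = 0.0534), whereas week 16 did not pass the test against week 0 (log2 -0.44, adjusted p = 0.334).

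Il10, an anti-inflammatory cytokine, was 303, 194 and 245 CPM at week 0, 577, 355 and 318 at week 2, 1089 and 862 at week 4, 408, 801 and 466 at week 8 and 85, 143 and 81.2 at week 16. All 3 libraries of week 16 were below every other library of the course. The late change of Il10 was -2.56 (SE 0.51, adjusted p = 0.00383), and the net change from week 0, -1.26, did not pass (adjusted p = 0.226). Areg, a growth factor for tissue repair, had a late change of -1.12 (SE 0.26, adjusted p = 0.0109), with week 16 libraries at 473, 753 and 770 CPM and those of weeks 2, 4 and 8 between 966 and 1867. Its call was lost without the first week 16 library (adjusted p = 0.0689) and without week 4 (adjusted p = 0.0874).

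Klrg1, an inhibitory lectin receptor of effector Tregs, was 1761, 1598 and 1696 CPM at week 0, 2324, 1896 and 1911 at week 2, 2687 and 2799 at week 4, 1659, 1958 and 1608 at week 8 and 941, 1315 and 817 at week 16. Week 4 was highest and week 16 lowest, neither overlapping with another week. Klrg1 fell by 1.06 in the late change (SE 0.13, adjusted p = 1.77e-05) and by 0.77 between weeks 8 and 16 (SE 0.15, adjusted p = 0.0379), the second of these a step in which no gene was called without the second week 8 or the third week 16 library. Gata3, the factor that drives Il1rl1 expression in these cells, was 883, 722 and 785 CPM at week 0, 1540 and 1538 at week 4 and 618, 1254 and 814 at week 16. Its late change did not pass the test (log2 -0.53, adjusted p = 0.128), but passed without the second week 16 library (-0.86, adjusted p = 0.0107). Rora, a nuclear receptor of tissue Tregs, had means of 970, 1132, 1016, 779 and 598 CPM (log2 late change -0.69, SE 0.09, adjusted p = 1.27e-05). Fgl2, a secreted suppressor, had means of 1310, 1713, 2184, 1460 and 1066 CPM (log2 late change -0.72, SE 0.12, adjusted p = 0.000428). Both were lowest at week 16. Cd36, a fatty acid transporter, was at or below 6.51 CPM in every library, too low to follow.

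Receptors that guide and retain Tregs in tissue changed in both directions. Ccr2, a receptor for chemokines of inflamed fat, was 1299, 1014 and 1312 CPM at week 0, 1784, 1446 and 1475 at week 2, 2071 and 2203 at week 4, 1340, 1577 and 1311 at week 8 and 707, 799 and 569 at week 16. The 3 week 16 values were the lowest of the course. Ccr2 fell by 1.28 in the late change (SE 0.15, adjusted p = 9.62e-06) and by 1.03 between weeks 8 and 16 (SE 0.17, adjusted p = 0.00991). The call between weeks 8 and 16 was lost without the second week 8 library (adjusted p = 0.0849) and without the first (adjusted p = 0.0731) or the third (adjusted p = 0.0843) week 16 library. Of a further list of 16 receptors and integrins, 5 fell in the late change: Cxcr6 (log2 -1.57), Cd69 (-1.08), which holds T cells in tissue, the hyaluronan receptor Cd44 (-1.01), Ccr4 (-0.67) and S1pr4 (-0.42). The means of Cd69 were 1467, 1778, 2054, 1577 and 850 CPM, those of Cxcr6 690, 800, 1234, 711 and 300 and those of Cd44 1141, 1515, 1731, 975 and 677. All 3 peaked at week 4 and were lowest at week 16. Gpr183, Itgae and Itgb8 rose, by 0.96, 0.87 and 0.63. The leukotriene B4 receptor Ltb4r1, outside the lists, fell by 1.53 (SE 0.19, adjusted p = 2.95e-05), from 484 to 987 CPM at weeks 2, 4 and 8 to 185, 330 and 188 at week 16.

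Genes of lymphoid and resting T cells moved the other way late. Of 16 tested, 7 rose in the late change and none fell, with a median of 0.87 (all genes 0.04). Among the 7 were Bach2 (log2 2.81) and Satb1 (2.24), both transcription regulators of resting T cells, the lymph node homing receptor Ccr7 (2.24), and Tcf7 (1.72), Lef1 (0.51) and Foxo1 (0.48). Means were 4.8, 3.8, 0.662, 8.21 and 19.8 CPM for Bach2, whose week 4 value is at the floor of 3 counts, and 42.3, 57.6, 10.1, 47.6 and 144 for Satb1. In the step to week 8, 2 of the list rose. By their log2 difference, 14 of the 16 were higher at week 16 than at week 0, with 2 called. The list's median log2 difference from week 0, averaged over libraries, was 0.187, -0.764, 0.256 and 0.427 at weeks 2, 4, 8 and 16. That of the B cell markers was 0.115, -0.679, 0.172 and 0.559 in the same order. The part of B cell reads in the change of this list was not tested.

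Ccr7 was 55.9, 119 and 43.2 CPM at week 0, 96.5, 53.3 and 130 at week 2, only 5.63 and 7.84 at week 4, 86.8, 72.8 and 87.8 at week 8 and 85.4, 146 and 301 at week 16. Tcf7, a transcription factor of resting and memory T cells, was 14.9, 36.1 and 25.3 CPM at week 0, 28.1, 27.7 and 48.6 at week 2, 5.63 and 11.1 at week 4, 45.1, 32.8 and 41.8 at week 8 and 42.0, 64.4 and 120 at week 16. Both genes were lowest at week 4, and the third week 16 library stood highest. Without that library the late change of Ccr7 was 1.61 (adjusted p = 0.0752) and that of Tcf7 1.21 (adjusted p = 0.0844), and both calls were also lost without week 4 (adjusted p = 0.347 and 0.181). On the list, 2 genes then rose, 1 fell and the median was 0.20. Without week 4 the median was 0.42 and 2 genes rose, so both week 4 and 1 library of week 16 bear on the size of this change.

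Several single genes rose late, among them Cd96, whose level in spleen Tregs is given further below. Dpp4, a surface peptidase known as CD26, was 16.0 to 30.6 CPM at weeks 0 and 2, 0.31 and 3.54 at week 4, 44.4, 39.8 and 24.6 at week 8 and 69.8, 50.0 and 105 at week 16. It rose by 2.72 in the late change (SE 0.32, adjusted p = 9.62e-06). Cd96, a receptor of the nectin family, was 15.3 to 36.1 CPM at weeks 0 and 2, 14.1 and 12.6 at week 4, 69.4, 70.3 and 54.1 at week 8 and 115, 124 and 132 at week 16. These steps did not overlap after week 4, and the late change of Cd96 was 2.15 (SE 0.22, adjusted p = 1.72e-06). The survival factor Bcl2 rose by 2.17 (SE 0.27, adjusted p = 1.99e-05), with 59.2, 69.5 and 164 CPM at week 16 against 5.32 to 45.7 at weeks 2, 4 and 8, although week 0, at 37.5 to 59.9, overlapped with week 16. The transcript of the muscle protein titin, Ttn, was 11.9 to 43.5 CPM up to week 4, 141, 178 and 138 at week 8 and 578, 348 and 345 at week 16 (log2 3.31, SE 0.36, adjusted p = 2.26e-05).

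The move away from the VAT profile was also counted on lists drawn from libraries outside the HFD course. Of 1860 tested genes that were at least 2-fold higher in VAT than in spleen Tregs with NCD, 336 fell and 24 rose in the late change (median -0.34). Of 1329 tested genes that were at least 2-fold lower in VAT, 308 rose and none fell (median 0.75). Over all genes tested, 4.41% rose and 4.78% fell in the late change (median 0.04). In bulk libraries, fewer cells of a kind and less RNA per cell cannot be told apart.

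**Figure D3:**
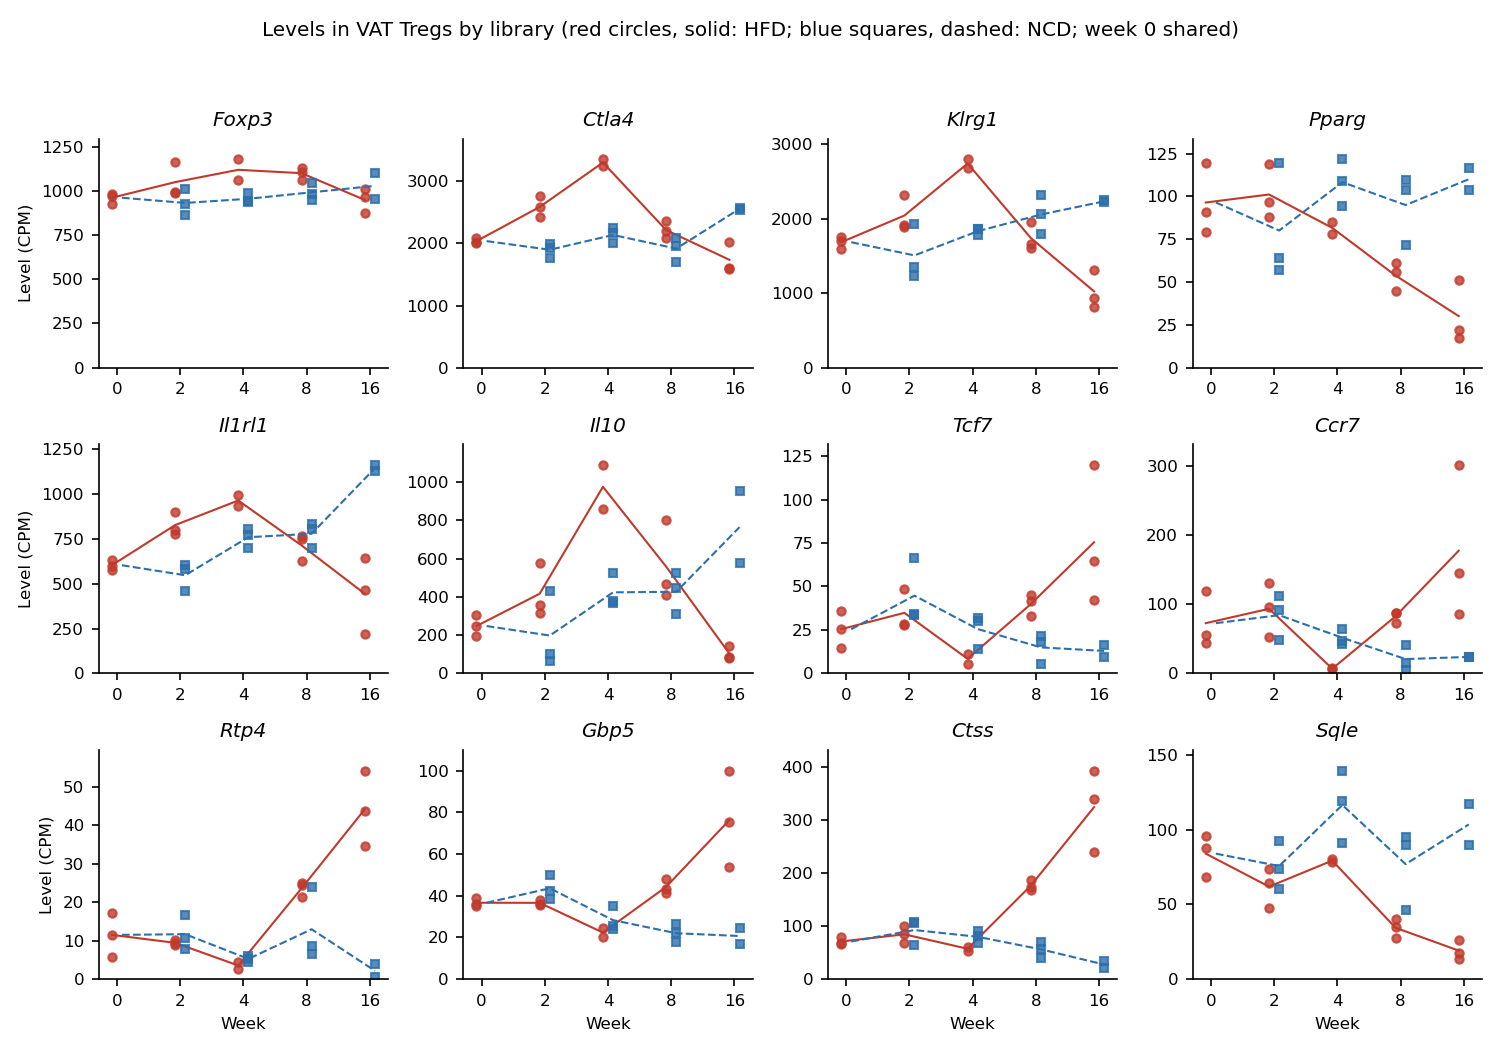
Levels of 12 genes in VAT Tregs in CPM (linear axes from 0), by week (evenly spaced categories). Points are libraries and lines join group means; red circles and solid lines are HFD, blue squares and dashed lines NCD, and the week 0 libraries are drawn once. With HFD, Pparg, Il1rl1, Il10 and Klrg1 are low and Rtp4, Gbp5 and Ctss are high at week 16.

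The Treg identity genes were split. Of 16 tested in the Treg core list, 4 rose and 3 fell in the late change (median 0.10). Foxp3 did not pass the test: it was 982, 928 and 972 CPM at week 0 and 966, 1007 and 872 at week 16, with weeks 2, 4 and 8 between 988 and 1178 (log2 late change -0.20, SE 0.07, adjusted p = 0.0951; with DESeq2 adjusted p = 0.0475). Il2ra, the high-affinity IL-2 receptor chain, fell by 0.84 (SE 0.13, adjusted p = 0.000116), from 1154 and 1130 CPM at week 4 to 529, 717 and 706 at week 8 and 437, 545 and 469 at week 16, where weeks 8 and 16 overlapped. Ikzf4, a transcription factor of Tregs, had means of 53, 38.5, 53.3, 72.8 and 103 CPM. Ctla4 and Capg fell with Il2ra, whereas Ikzf4 (0.96), the adenosine-producing enzyme Nt5e (1.35), the TGF-beta anchor Lrrc32 (1.32) and Izumo1r (0.75) rose.

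Coinhibitory and TNF receptor family genes rose where they changed. Of 16 tested, 7 rose and none fell in the late change (median 0.39): Ltb, Lta, Btla, Cd200, Cd27, Pdcd1 and Tnfrsf9. Ltb, a subunit of the lymphotoxin heterotrimer, was 284 to 448 CPM through week 4, 606, 555 and 635 at week 8 and 843, 652 and 814 at week 16. It rose by 0.74 in the step to week 8 (SE 0.11, adjusted p = 0.000471) and by 0.86 in the late change (SE 0.10, adjusted p = 4.39e-06). Cd27, a receptor of the same family, had means of 336, 350, 388, 433 and 502 CPM (log2 late change 0.37, SE 0.08, adjusted p = 0.00236). Lta, the partner of Ltb, with means of 4.12, 3.72, 3.21, 8.01 and 15.4 CPM, had a late change of 1.74 (SE 0.34, adjusted p = 0.00106). The checkpoint receptor Pdcd1 was 426 to 549 CPM at weeks 0 and 2, 731 and 667 at week 4, 830, 815 and 922 at week 8 and 676, 1197 and 833 at week 16, and its late change (0.44, adjusted p = 0.0171) was 0.18 without the second week 16 library (adjusted p = 0.391). Tnfrsf9, with means of 449, 359, 530, 584 and 636 CPM (0.40, adjusted p = 0.0348) lost its call when any of 6 single libraries was left out, among them the first of week 16 (0.26, adjusted p = 0.297).

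Secreted and surface mediators of suppression went apart. Of 13 tested, 6 fell and 4 rose in the late change (median -0.72). Beside Il10, Areg and Fgl2, the protease gene Gzmb fell by 2.01 (SE 0.33, adjusted p = 0.000888), from 507 to 1502 CPM at weeks 2, 4 and 8 to 321, 213 and 112 at week 16. Furin, a convertase that activates TGF-beta, was 91.7, 101 and 127 CPM at week 2, 33.2, 40.9 and 35.0 at week 8 and 33.2, 32.6 and 24.5 at week 16, so its fall came in the step to week 8 (log2 -1.25, SE 0.18, adjusted p = 0.000471). Ebi3, a chain of IL-35, with means of 64.4, 47.2, 40.9, 56.1 and 91 CPM, rose by 0.94 (SE 0.17, adjusted p = 0.000731).

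The type I interferon response genes that were called late all rose. Of 43 tested, 19 rose and none fell in the late change (median 0.56, all genes 0.04), 4 rose in the step to week 8 and none was called in the last step. Many have an interferon-stimulated response element in their promoter, whose core was searched as GAAANNGAA on both strands, overlapping matches included. It was found in 7 of the 14 risen genes with a RefSeq promoter window of 300 bases (250 before to 50 after the start; 50%), against 8.63% of 9735 tested genes with such a window. A match is a description of these letters, not of binding. The list was made of known interferon genes, and its members that did not rise were not counted apart. The comparison therefore cannot tie the element to the late rise. The 250 bases before the start of 3 of them, 5′ to 3′ on the gene's strand (GRCm38.p6), are given with the matches in capitals, as examples picked, after their values were seen, from the risen genes with a match. Other risen genes had matches closer to the start.
Ifit1, chr19:34640639-34640888, plus strand: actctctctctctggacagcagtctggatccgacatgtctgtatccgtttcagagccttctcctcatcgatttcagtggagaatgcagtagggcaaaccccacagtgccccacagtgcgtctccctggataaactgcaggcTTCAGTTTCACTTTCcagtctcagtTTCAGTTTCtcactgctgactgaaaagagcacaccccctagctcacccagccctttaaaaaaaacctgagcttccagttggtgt
Oas3, chr5:120777660-120777909, minus strand: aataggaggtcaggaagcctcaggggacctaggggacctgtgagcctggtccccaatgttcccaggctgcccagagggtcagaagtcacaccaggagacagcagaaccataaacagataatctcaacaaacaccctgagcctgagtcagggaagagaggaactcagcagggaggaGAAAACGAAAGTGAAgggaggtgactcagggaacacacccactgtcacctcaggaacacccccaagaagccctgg
Ifih1, chr2:62646256-62646505, minus strand: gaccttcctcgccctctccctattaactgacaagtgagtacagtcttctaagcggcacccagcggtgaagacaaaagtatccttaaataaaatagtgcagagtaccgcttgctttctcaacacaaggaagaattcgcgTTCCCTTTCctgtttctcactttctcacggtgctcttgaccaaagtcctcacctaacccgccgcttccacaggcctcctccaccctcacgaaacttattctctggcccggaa

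In Ifit1 the 3 matches began 84 to 109 bases before the start, in Oas3 the 2 matches overlapped and began 69 and 75 bases before it, and in Ifih1 the match began 112 bases before it. Ifit1, which binds foreign RNA, was 0 and 1.26 CPM at week 4, 36.6, 10.5 and 36.5 at week 8 and 55.3, 63.9 and 24.1 at week 16, with a late change of 2.62 (SE 0.78, adjusted p = 0.0445). Week 16 overlapped with weeks 2 and 8 in this gene, and week 4 lay at or near the floor of 3 counts. Oas3, a sensor that makes oligoadenylates, was 0.94 and 3.54 CPM at week 4, 16.1, 28.6 and 29.4 at week 8 and 22.3, 13.1 and 27.9 at week 16. It rose in the step to week 8 (log2 2.33, SE 0.40, adjusted p = 0.00243). Weeks 8 and 16 of Oas3 overlapped, and its week 4 value of 0.94 CPM is at the floor of 3 counts. Ifih1, the RNA sensor MDA5, was 14.3 to 19.0 CPM at weeks 0 and 2, 10.0 and 13.2 at week 4, 33.0, 41.8 and 36.7 at week 8 and 43.9, 42.4 and 46.3 at week 16. Its groups did not overlap after week 2, and it rose by 1.42 to week 8 (SE 0.27, adjusted p = 0.0062) and by 1.20 in the late change (SE 0.24, adjusted p = 0.00131; 0.82 without week 4, adjusted p = 0.067).

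Rtp4, an interferon-induced chaperone, was 5.66, 17.3 and 11.6 CPM at week 0, 10.0, 8.88 and 9.36 at week 2, 2.50 and 4.55 at week 4, 21.4, 25 and 24.4 at week 8 and 54.2, 34.6 and 43.6 at week 16. Weeks 8 and 16 lay above all earlier libraries and did not overlap. Rtp4 rose by 2.01 in the step to week 8 (SE 0.42, adjusted p = 0.011) and by 2.25 in the late change (SE 0.35, adjusted p = 0.000135).

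Other well known members of the list either did not pass the test or lost their call without single libraries. Isg15, an interferon-induced ubiquitin-like modifier, was 6.76, 5.11 and 4.16 CPM at week 2 and 4.22, 6.13 and 3.37 at week 16, and did not pass the test (log2 0.69, adjusted p = 0.354). Ifit3, with group means of 4.47, 5.83, 0.439, 4.55 and 9.77 CPM, was 12, 14.4 and 2.92 at week 16 and likewise did not pass (log2 2.11, adjusted p = 0.0662; with DESeq2 adjusted p = 0.0459). Irf7, which amplifies interferon genes, had means of 21.4, 34.7, 18.2, 29.9 and 46.1 CPM and rose by 0.79 (SE 0.23, adjusted p = 0.0249). Its call was lost without the first (adjusted p = 0.171) or the third week 16 library (adjusted p = 0.0837). It was also lost without week 4 (log2 0.51, adjusted p = 0.294). Without replicate 2 or 3 of week 4 alone, the change of Irf7 was 0.77 or 0.79. Without week 4, 4 genes of the list rose (median 0.37), and without the first week 16 library 8 rose (median 0.38). None of 9 tested interferon receptor and induction genes was called in the late change, and 1 was without the first week 16 library. Of 324 tested genes raised at least 2-fold by IFNa in cultured VAT Tregs, 90 rose and 10 fell in the late change (median 0.50). Of 345 lowered in that culture, 19 rose and 39 fell (median -0.02). The shares over all genes tested were 4.41% risen and 4.78% fallen (median 0.04). The culture libraries, of VAT Tregs from a Pparg and Foxp3 reporter strain, took no part in the course. By their titles, 2 had IL-33 with IFNa and 3 had IL-33 without it, so these 2 lists rest on few libraries.

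Guanylate-binding protein and antigen presentation genes, which type II interferon also raises, rose together. Of 25 tested, 18 rose and 1, H2-D1 (log2 -0.28, adjusted p = 0.0236), fell in the late change (median 0.70). Gbp5 was 34.9 to 39.1 CPM at weeks 0 and 2, 20.03 and 24.5 at week 4, 43.3, 41.5 and 47.9 at week 8 and 99.9, 53.8 and 75.1 at week 16. The groups did not overlap from week 4 on, and Gbp5 rose by 1.21 (SE 0.16, adjusted p = 2.4e-05). Iigp1, a GTPase against intracellular pathogens, was 13.2 to 36.0 CPM up to week 4, 124, 101 and 108 at week 8 and 507, 152 and 315 at week 16 (log2 3.24, SE 0.43, adjusted p = 0.000144). The immunoproteasome subunit Psmb10 had means of 72, 72.2, 50, 113 and 152 CPM and rose by 1.03 (SE 0.15, adjusted p = 4.33e-05), although its second week 16 library, at 101 CPM, lay below the lowest of week 8, at 102. Gbp4, with means of 227, 217, 181, 315 and 466 CPM, rose by 1.01, Irgm1 by 1.08, Psmb9 by 0.75 and Tap1 by 0.56. Without the first week 16 library, which was highest for many of these genes, 13 rose.

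Ctss, a cysteine protease that trims the chaperone of class II molecules, was 53.1 to 99.7 CPM through week 4, 186, 168 and 175 at week 8 and 393, 240 and 340 at week 16. The groups of weeks 8 and 16 did not overlap with each other or with the earlier libraries. Ctss was named by a rule that asks for no overlap between the compared weeks. It rose by 1.34 to week 8 (SE 0.19, adjusted p = 0.000471) and by 1.78 in the late change (SE 0.16, adjusted p = 1.14e-06). Among 16 tested cathepsin and lysosome genes 3 rose and 3 fell (all genes 4.41% and 4.78%). Ctss and Ctsw were among those that rose, while Lgmn (log2 -1.38), Ctsh (-0.89) and Ctsd (-0.40) fell. Means were 65.4, 101, 116, 70.9 and 36.2 CPM for Lgmn, an asparagine-specific protease, and 202, 217, 309, 205 and 129 for Ctsh. Cd74, the class II chaperone itself, rose by 1.68 (SE 0.37, adjusted p = 0.00769), with 218, 144 and 121 CPM at week 16 and 15.2 to 110 at weeks 2, 4 and 8. It and H2-Eb1 were the 2 of 12 tested B cell markers that rose.

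Cholesterol synthesis genes fell from week 8 on. Of 27 tested in the sterol and fatty acid list, 20 fell and none rose in the late change (median -0.70, all genes 0.04), 5 fell in the step to week 8, and 17 were lower at week 16 than at week 0. Sterol genes are driven by the factor Srebf2, which binds sterol regulatory elements; the core TCACNCCAC, searched on both strands, was in 1 of 13 fallen genes with a promoter window (7.69%) and in 1.37% of tested genes. That gene is Hmgcs1, an early enzyme of the pathway, shown because it fell and carries the match. Here too, list members without a call were not counted apart.
Hmgcs1, chr13:119690101-119690350, plus strand: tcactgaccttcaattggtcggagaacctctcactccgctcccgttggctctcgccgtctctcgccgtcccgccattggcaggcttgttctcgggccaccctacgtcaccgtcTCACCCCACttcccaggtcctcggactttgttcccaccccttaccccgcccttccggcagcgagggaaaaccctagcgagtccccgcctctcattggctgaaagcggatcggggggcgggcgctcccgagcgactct

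The match in Hmgcs1 began 137 bases before the start. Hmgcs1 was 125 to 199 CPM at weeks 0, 2 and 4, 98.1, 79.6 and 98.6 at week 8 and 59.6, 65.9 and 50.8 at week 16, without overlap between these 3 sets (log2 late change -1.16, SE 0.24, adjusted p = 0.00308). Sqle, the squalene epoxidase, was 87.7, 68 and 96 CPM at week 0, 64.3, 47.7 and 73.6 at week 2, 80.1 and 78.4 at week 4, 27.7, 40.4 and 35.0 at week 8 and 13.7, 26.2 and 17.3 at week 16. It fell by 1.02 in the step to week 8 (SE 0.24, adjusted p = 0.0234) and by 1.53 in the late change (SE 0.24, adjusted p = 0.000155). Srebf2 was 169 to 233 CPM through week 4, 142, 154 and 149 at week 8 and 111, 108 and 107 at week 16, and fell by 0.77 (SE 0.10, adjusted p = 1.94e-05). Hsd17b7, a late enzyme of the pathway, had means of 41.9, 38.9, 53.5, 24.9 and 15.2 CPM and fell by 1.29 (SE 0.23, adjusted p = 0.000402). Leaving out any 1 week 16 library left 15 to 18 of the list called lower, and leaving out week 4 left 12.

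Other lipid lists had fewer calls. Of 18 tested for fatty acid uptake and storage, 5 fell and 1 rose (median -0.42). Dgat2 rose by 1.46 (SE 0.21, adjusted p = 5.87e-05), with 75.9, 96.7 and 104 CPM at week 16 and 24.0 to 44.8 at weeks 2, 4 and 8. The lipid droplet proteins Plin2 and Hilpda fell, by 1.16 and 1.18. Their means were 264, 364, 470, 333 and 172 CPM for Plin2 and 397, 509, 759, 431 and 242 for Hilpda. For Plin2 the call was lost without the first or the third week 16 library (adjusted p = 0.0627 and 0.101) and without week 4 (adjusted p = 0.0534). On the list, 1 fell without the first or the third week 16 library. Of 18 tested for fatty acid oxidation, 5 fell and none rose, by 0.64 at most (Acaa2), and without the third week 16 library 1 fell. Acaa2, a thiolase, had means of 142, 156, 184, 138 and 102 CPM, Hadh, a dehydrogenase of the same cycle, 278, 249, 258, 223 and 180 and Ech1, an isomerase, 203, 208, 229, 166 and 157. Over all genes tested 4.41% rose and 4.78% fell. Oxidative phosphorylation had 1 of 31 tested lower, and glycolysis and hypoxia 3 lower and 1 higher of 21. Among the last, the hypoxia gene Ndrg1 fell by 1.09 (SE 0.12, adjusted p = 3.36e-06), at 66.3 to 91.6 CPM at week 16 against 92.6 to 244 at weeks 2, 4 and 8. Egln3, an oxygen-sensing hydroxylase, fell as well (means 108, 126, 224, 107 and 69.3 CPM; log2 -1.06, SE 0.20, adjusted p = 0.00147; without week 4 adjusted p = 0.0634). The lactate exporter Slc16a3 rose (means 36.8, 29.8, 31.5, 28.3 and 54.7 CPM; log2 0.88, SE 0.18, adjusted p = 0.00166; without the first week 16 library adjusted p = 0.056).

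**Figure D4:**
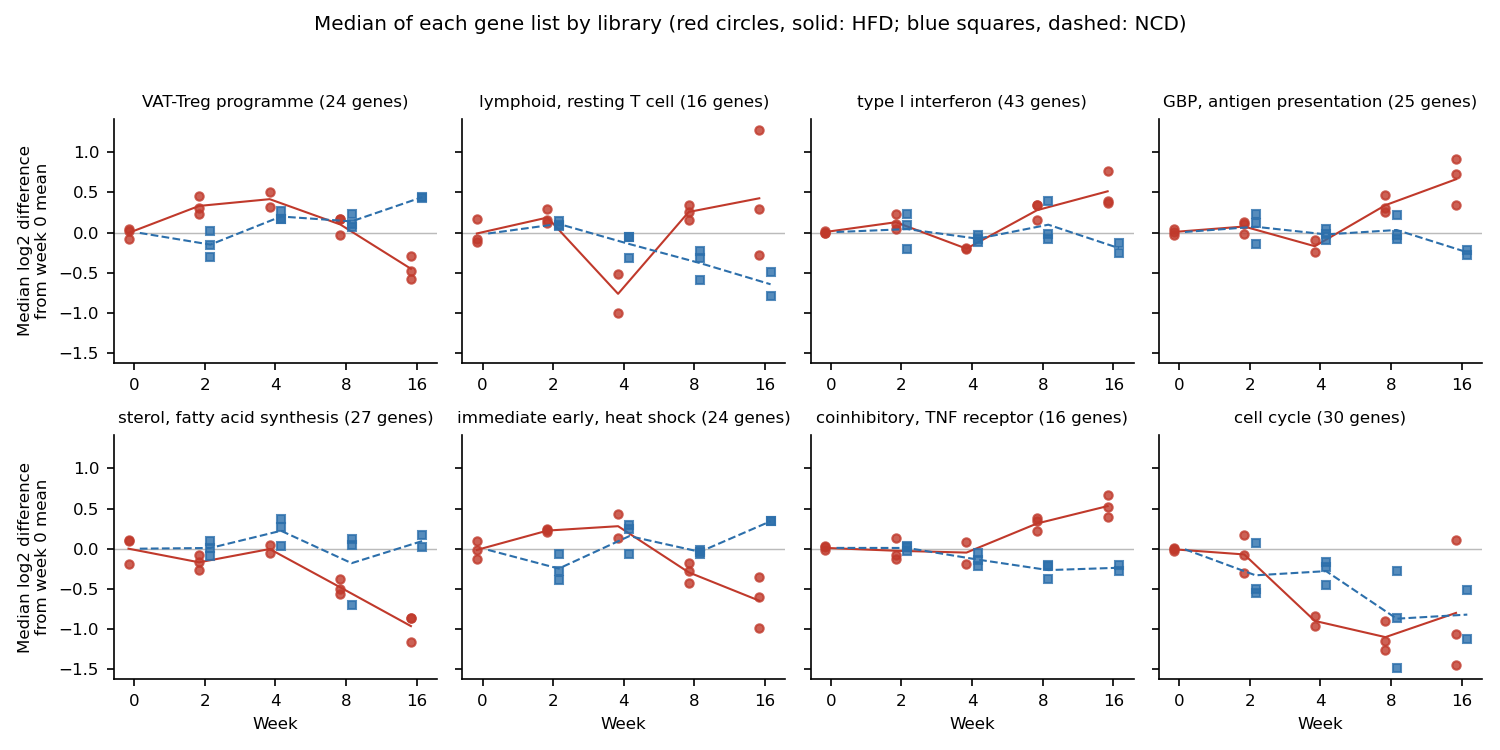
Median over the tested genes of each list of log2(CPM + 1) minus its week 0 mean, by week (evenly spaced categories). Each point is a library and lines join group means; red circles and solid lines are HFD, blue squares and dashed lines NCD. With HFD at week 16 the sterol list lies at -1.16 to -0.87 and the type I interferon list at 0.37 to 0.77.

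Immediate early and heat shock genes, which also respond to the handling of cells, fell late as well. Of 24 tested, 12 fell and none rose in the late change (median -0.69), among them Ier3 (log2 -2.53), Btg2 (-0.84) and Ppp1r15a (-0.85). Means were 67.2, 66.9, 139, 47 and 13 CPM for Ier3, 1245, 1481, 1920, 1221 and 846 for Btg2 and 1497, 1532, 2147, 1412 and 926 for Ppp1r15a. The mean log2 CPM of this list per library was 7.99 to 8.33 at week 0, 8.40 to 8.44 at week 2, 8.14 to 8.41 at week 4, 7.66 to 8.03 at week 8 and 6.91 to 7.86 at week 16. With NCD at week 16 it was 8.62 to 8.72. The week 16 range overlapped with week 8 and with no other week. Time on the diet and this level thus move together and cannot be told apart. With the level as a covariate, 118 genes were called higher and 129 lower in the late change, and 219 of these 247 were among the 1301 called without it. On the lists, 3 fell and 1 rose of the VAT-Treg programme (median -0.52), 3 rose of the type I interferon genes (median 0.55), 1 of the guanylate-binding genes (0.68) and 2 of the lymphoid genes (1.31), while 4 sterol genes fell (-0.86). Pparg (log2 -0.95, adjusted p = 0.258), Il1rl1 (-0.34, adjusted p = 0.543) and Il10 (-2.76, adjusted p = 0.0748) were not called in that fit.

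Genes of NF-kB signalling and of IL-2 and STAT5 signalling were divided. Of 18 tested NF-kB genes, 4 fell and 1 rose. Nfkbia, an inhibitor that NF-kB induces, fell by 0.80 (SE 0.12, adjusted p = 0.000171), and Relb, of the non-canonical arm, rose by 0.71 (SE 0.11, adjusted p = 0.000113). Means were 4727, 6016, 6498, 5331 and 3417 CPM for Nfkbia, 1221, 1492, 1603, 1193 and 785 for Nfkbiz, which fell too (log2 -0.85, SE 0.21, adjusted p = 0.0134), and 93.8, 105, 81.9, 135 and 172 for Relb. Of 16 IL-2 and STAT5 genes, 4 fell and 3 rose. The STAT5 target Socs2 was 68.3, 68.7 and 64.1 CPM at week 16, below all other libraries of the course (90.3 to 271), and fell by 1.16 (SE 0.15, adjusted p = 1.97e-05). Cish, another such target, had means of 784, 813, 976, 806 and 603 CPM (log2 -0.52, SE 0.10, adjusted p = 0.000697). The survival gene Bcl2l1, with means of 450, 456, 462, 371 and 277 CPM, also fell (log2 -0.62, SE 0.15, adjusted p = 0.0101). The calls of Nfkbiz and Bcl2l1 were lost without week 4 (adjusted p = 0.0725 and 0.0658), without the first week 16 library (adjusted p = 0.0685 and 0.0789) and without the third. Of 16 clock genes and of 10 glucocorticoid-induced genes tested, 2 each fell. Over all genes tested 4.41% rose and 4.78% fell in the late change. No set test was run, so such small counts are not read as a change of a list. The 2 clock calls were lost without week 4 and without the first or the third week 16 library. Of 10 tested helper T cell genes 2 rose, Cxcr5 (log2 2.52) and Ccr6 (1.32), and Ifng and Tbx21 were not called. The death receptor Fas had means of 42.3, 34.1, 24.5, 61.5 and 89 CPM and rose by 1.26 (SE 0.21, adjusted p = 0.000221). Trp53, the gene of p53, rose by less (means 138, 135, 122, 142 and 171 CPM; log2 0.36, SE 0.10, adjusted p = 0.0212), and its call was lost without week 4 (adjusted p = 0.143), the first (adjusted p = 0.0799) or the third week 16 library (adjusted p = 0.135).

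Cell cycle genes had another course, with no call in the late change among 30 tested (median 0.09). In the early step 29 of 30 were negative (median -0.50) and in the step to week 8 also 29 of 30 (median -0.65), while 28 were positive in the last step (median 0.46), with none called in any of the 3. Mki67, a proliferation marker, was 174, 191 and 167 CPM at week 0, 162, 175 and 199 at week 2, 83.9 and 95.1 at week 4, 69.1, 94.1 and 87.0 at week 8 and 200, 64.2 and 66.6 at week 16. The first week 16 library was as high as week 0 and the other two were at the level of week 8. Without it, Mki67 fell in the late change (log2 -0.76, adjusted p = 0.0282), where it was at 0.00 with it.

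The other genes with the smallest p in the late change gave falls in Nhsl2, the GTPase Gem, the phosphatase Ubash3b and the kinase anchor Akap7. Nhsl2 was 24.1 to 46.0 CPM at weeks 0 and 2, 18.5 and 28.6 at week 4, 12.3, 12.7 and 17.2 at week 8 and 5.40, 4.97 and 3.15 at week 16, so weeks 4, 8 and 16 followed each other without overlap (log2 -2.36, SE 0.25, adjusted p = 2.09e-06). Gem fell by 1.65 (means 472, 643, 893, 365 and 189 CPM), Ubash3b by 1.18 (means 386, 397, 528, 288 and 173 CPM) and Akap7 by 1.48 (means 30.8, 34.3, 44.5, 30.7 and 12.8 CPM). Zfp281, a zinc finger gene, rose by 1.08 (means 68.8, 75.2, 62.9, 86.4 and 157 CPM) and Pnkd by 1.23 (means 47.8, 34.7, 30.6, 38.2 and 80.3 CPM). BE692007 rose by 1.81 (means 16.2, 18.4, 7.6, 28 and 55.7 CPM) and the interferon-inducible GTPase Tgtp2 by 2.04 (means 6.25, 8.92, 4.18, 19.5 and 37 CPM). In the last step alone Pnkd rose by 1.07 and Dgat2 by 1.29, while Nhsl2 fell by 1.62, Akap7 by 1.25, Ltb4r1 by 1.16 and the RNA-decay factor Zfp36 by 1.16 (means of Zfp36 189, 272, 330, 320 and 143 CPM). Each of the 6 calls of the last step was lost when replicate 1 or 3 of week 16 or replicate 2 of week 8 was left out. In the step to week 8 the editing enzyme Apobec1 rose by 2.29 (SE 0.29, adjusted p = 0.000172), from 1.88 to 7.31 CPM at weeks 2 and 4 to 24.1, 26.4 and 19.5, and stood at 24.5, 25 and 29.7 at week 16. The lectin gene Clec2i rose with it (means 9.95, 8.49, 3.87, 40.4 and 58.6 CPM; log2 2.81, SE 0.40, adjusted p = 0.000471), as did the sialyltransferase St6gal1 (means 29, 37.8, 8.41, 62.4 and 88.3 CPM; log2 1.79, SE 0.27, adjusted p = 0.000796). Without week 4 St6gal1 had a change of 0.72 and no call (adjusted p = 0.234). Falls in this step were seen in Parpbp (log2 -2.59, SE 0.49, adjusted p = 0.00633; means 15.9, 14.2, 12.7, 2.17 and 8.81 CPM), Slc66a2 (-1.16, SE 0.22, adjusted p = 0.00689; means 104, 140, 134, 61.2 and 46.9 CPM), the kinase Plk3 (-1.14, SE 0.22, adjusted p = 0.00751; means 69.4, 88.7, 93.8, 41.1 and 41 CPM) and Myadm (-1.73, SE 0.31, adjusted p = 0.00751; means 124, 186, 165, 52.9 and 35.7 CPM). Without the first week 8 library the calls of Parpbp (adjusted p = 0.0587), Slc66a2 (adjusted p = 0.0587) and Plk3 (adjusted p = 0.063) in this step were lost. Parpbp alone of these 4 was not called in the late change. Tgtp2, Ifit, Oas, Gbp and H2 genes have near-identical copies, and the labels do not say how reads shared between copies were treated, so their single values are uncertain.

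The same contrast was also taken in mice fed NCD, which aged over the same weeks. At week 16 the mean log2 CPM of the immediate early list was 8.62 to 8.72 with NCD and 6.91 to 7.86 with HFD. The contrast therefore does not isolate age. Week 16 against weeks 2, 4 and 8 called 10 genes with NCD (0.0706%), 8 higher and 2 lower. The late change differed between the diets, with no library shared, in 1009 genes: 436 were more positive with HFD (3.08%) and 573 more negative (4.05%). The NCD side at week 16 has 2 libraries, and without the second or the third replicate 471 and 416 genes were called, and without week 4, 579. With the mean level of the immediate early list in the model 54 genes were called, 48 of them among the 1009.

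The VAT-Treg list had late changes of opposite sign with the 2 diets. Its median late change was -0.79 with HFD and 0.31 with NCD (19 of 24 positive, none called), and 14 members were more negative and 2 more positive with HFD in the test of the difference. Il10 had group means of 198, 424, 427 and 765 CPM at NCD weeks 2, 4, 8 and 16, and its late change differed by -3.78 (SE 0.67, adjusted p = 0.00229). Il1rl1 had means of 547, 759, 779 and 1144 CPM with NCD, a difference of -1.64 (SE 0.28, adjusted p = 0.0014), and Gata3 differed by -1.14 (SE 0.30, adjusted p = 0.0258). Of the lymphoid list 7 members were more positive with HFD, where the median of NCD was -0.61. Ctss, at 92.5, 79.8, 56.1 and 27.5 CPM with NCD, fell there (log2 -1.43, adjusted p = 0.0158), and its difference was 3.21 (SE 0.29, adjusted p = 5.81e-07). The difference passed in 16 antigen presentation and guanylate-binding genes and 15 type I interferon genes, all more positive with HFD, and in 11 sterol genes and 14 immediate early genes, all more negative. Pdcd1 (log2 -0.05, adjusted p = 0.925) and Tnfrsf9 (0.32, adjusted p = 0.384) did not pass it. With NCD at week 16 the summed B cell markers were at 388 to 404 CPM. Ighm was also more positive with HFD (log2 3.35, adjusted p = 0.0349), and its part in these differences was not tested.

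The spleen of mice on HFD gave few late changes. There 6 of 15601 genes were called (0.0385%), all higher. The late change in VAT exceeded that in spleen in 249 genes (1.60%) and lay below it in 218 (1.40%), in all 467 genes. This total was 226 without the third VAT library of week 16, 236 without the first spleen library of week 16, 84 without week 4 and 99 with the immediate early level in the model. Cd96 stood between 239 and 273 CPM in the spleen groups, above every VAT library, and differed by 2.24 (SE 0.24, adjusted p = 9.25e-08). Ltb was 1019 to 1036 CPM in spleen and differed by 0.82 (SE 0.12, adjusted p = 4.81e-05). The difference passed in 8 sterol, 7 lymphoid, 8 type I interferon and 7 antigen presentation and guanylate-binding genes, in the directions of the VAT course, and in 4 VAT-Treg genes. Pparg, near the floor of 3 counts in spleen, did not pass (log2 -2.31, adjusted p = 0.237).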

How the data were processed

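Gene counts for the libraries were deposited by the authors in a single table of raw counts per gene symbol. Reads were aligned with STAR 2.7.3a and counted with featureCounts on mm10, per the submitters' processing notes. Per the labels' protocols, RNA of 1000 sorted cells was amplified from poly-A tails with 18 PCR cycles and read as pairs of 38 bases. No molecular identifiers were used, so counting error does not cover amplification, and strand was not kept in a way stated in the sources used here: overlapping genes cannot be told apart.

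From these counts, edgeR 4.0.16 (R 4.3.3) kept 14164 genes, normalised 25 VAT libraries by TMM and fitted a robust quasi-likelihood model with 1 mean per group. Each comparison is a contrast of group means: the early step is weeks 2 and 4 minus week 0, the middle step week 8 minus weeks 2 and 4, the last step week 16 minus week 8, and the late change week 16 minus weeks 2, 4 and 8. The spleen comparison was fitted on both tissues with 15601 genes. P-values were adjusted by Benjamini-Hochberg over all genes of a fit, with a threshold of 0.05. A standard error is the log2 difference divided by the root of its F statistic.

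Genes were named by rule. For the late change these were the 10 rising and 10 falling genes of smallest p, changed 2-fold or more, whose compared libraries did not overlap and whose log2 CPM averaged 3 or more. For each step 5 and 5 were taken likewise, without predicted and ribosomal protein genes. To these came the 3 members of smallest p of each list with at least 3 calls, and 22 genes fixed by name. Some of these genes are not reported here. Other genes in the text (Atxn1, Id2 and Srgn as a count under 5, and list members such as Lrrc32, Iigp1, Ifit1, Oas3, Hmgcs1, Gzmb and Cd74) were chosen after their values were seen. The libraries, gene lists and comparisons were chosen with earlier results of these data known. Alternatives used RLE normalisation, no filter, DESeq2 1.42.0, limma 3.58.1 (voom), a replicate block, a covariate and leaving libraries out. Promoter windows come from RefSeq (GRCm38.p6).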

Additional observations from a re-analysis of the deposited data

Results flagged for a closer look

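The late change in VAT Tregs differed between the diets in 1009 genes, by a test of the difference itself (edgeR quasi-likelihood, Benjamini-Hochberg adjusted). Among the genes named for the course, the log2 difference (HFD minus NCD) was positive for Ctss (3.21), Cd96 (2.90), Pnkd (1.22), Zfp281 (1.11), Dpp4 (3.27), BE692007 (2.80), Tgtp2 (4.17), Bcl2 (2.86), Ttn (4.02), Ltb (1.26) and Tcf7 (2.72). It was negative for Nhsl2 (-2.90), Ndrg1 (-1.47), Ccr2 (-1.60), Klrg1 (-1.39), Socs2 (-1.22), Ubash3b (-1.34), Gem (-2.24), Ltb4r1 (-2.02), Akap7 (-2.07), Cd69 (-1.65), Pparg (-1.57), Il1rl1 (-1.64), Gata3 (-1.14), Il10 (-3.78), Areg (-1.92), Sqle (-1.77) and Ctla4 (-0.99). Week 16 with NCD has 2 libraries, and the level of immediate early and heat shock genes differed between the diets at week 16. With that level as a covariate 54 genes were called, 48 of them among the 1009.

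Between VAT and spleen of mice on HFD the late change differed in 467 genes by the same kind of test. The log2 difference (VAT minus spleen) was positive for Ctss (1.65), Cd96 (2.24), Zfp281 (1.00), Dpp4 (2.99), BE692007 (1.48), Tgtp2 (1.74), Bcl2 (2.45), Ttn (2.38), Ltb (0.82) and Tcf7 (1.89), and negative for Nhsl2 (-2.08), Ndrg1 (-1.26), Ubash3b (-1.04), Gem (-1.86), Ltb4r1 (-1.96), Cd69 (-1.01), Areg (-2.34), Sqle (-1.11) and Ctla4 (-0.57). The same week 16 libraries of VAT enter both sets of differences, so the sets share their libraries.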

How the results depend on the processing

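Of 72 genes chosen by the naming rule and called in the late change, 72 kept the call with RLE normalisation and with DESeq2, 71 with limma voom, 70 without a filter, 71 with the replicate block, 57 without week 4 and 35 with the immediate early and heat shock level as a covariate. With that covariate the counts were 268 for any change, 2 early, 178 middle, 1 last, 247 late, 180 net, 343 for the trend, 54 for the diet difference and 99 for the tissue difference. Without week 4 they were 0 early, 104 middle, 12 last, 582 late, 579 for the diet difference and 84 for the tissue difference. Without a filter on low counts they were 1939 for any change, 128 early, 519 middle, 209 last and 829 for the tissue difference. DESeq2 called 1876, 86, 488 and 188 for any change and the early, middle and last steps. Voom called 2032 for any change, 81 early and 36 last, and a fit of the compared groups alone 236 early, 559 middle and 4 last. Why these counts differ was not tested.

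Leaving out 1 library gave 0 to 6 early calls, 62 to 234 middle, 0 to 153 last, 725 to 1281 late, 360 to 746 net, 1023 to 1616 for the trend, 814 to 1155 for any change, 416 to 1103 for the diet difference and 226 to 543 for the tissue difference. The last step gave 153 without replicate 2 of week 16 and 0 without replicate 3 of week 16 or replicate 2 of week 8. The late change of Mki67 was -0.76 without replicate 1 of week 16 and 0.27 without replicate 2. An alternative chosen after seeing the data, week 16 against weeks 2 and 4, called 1677 genes.

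Replicate numbers are shared between weeks but the labels do not tie them to a shared animal or batch, and 0 of 26 same-numbered pairs had a correlation of deviations over 0.1 (-0.027 to 0.053). With the replicate number as a block, 1197 genes were called for any change, 10 in the last step and 1266 in the late change. In the last step the calls of Dgat2 (adjusted p = 0.0615), Ltb4r1 and Zfp36 (both 0.055) were lost with the block, and with voom those of Akap7 (0.0628) and Nhsl2 (0.106).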
